A study of Rattus norvegicus with 12 samples.

Results

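The miR-148 and miR-152 family of the rat consists of miR-148a, miR-148b and miR-152. Its members were chosen by name, as every row of the deposited tables with the stem miR-148a, miR-148b or miR-152, all listed arms included. This gave 6 of 753 mature miRNAs, rno-miR-148a-3p, rno-miR-148a-5p, rno-miR-148b-3p, rno-miR-148b-5p, rno-miR-152-3p and rno-miR-152-5p (the prefix marks the rat and is left off from here). All 6 were among the 420 miRNAs that passed the filter on low counts.

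A miRNA hairpin is cut by Dicer into a duplex whose 2 arms are named 5p and 3p, and one arm, the guide, is preferentially loaded into the silencing complex. The guide finds its target mRNAs mainly through its seed, bases 2 to 8. The guides of this family, the 3p arms, are best known for repressing Dnmt1, which copies DNA methylation to the new strand after replication, and Dnmt3b, which sets methylation de novo. DNA methylation in the adult hippocampus takes part in the regulation of genes of synaptic plasticity and memory. The data hold small RNAs alone, so the methyltransferase mRNAs and proteins were not measured, and the name of DNA methyltransferase regulators rests on background and not on these libraries.

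Small RNA libraries came from the right hippocampus of adult male Sprague Dawley rats of P70 to P80, each made from 1 µg of total RNA. The study describes the tissue as dorsal hippocampus. The vehicle group had 4 rats (animals 9, 10, 19 and 20), labelled as vehicle, which the study's figure legend gives as saline. The ethanol group had 8 rats (animals 3, 4, 7, 8, 15, 16, 23 and 24), injected with ethanol at 4 g/kg. Tissue was collected at 3 h, so the comparison asks whether these miRNAs shifted within hours of an acute high dose. The study's design had equal groups, and the libraries above are those analysed here. Each library is from 1 rat, and the dissected hippocampus is a mixture of cells, in which fewer cells of a type and less RNA per cell cannot be told apart.

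Library totals ranged from 1960704 to 4917928 counts. Values are given as CPM, counts scaled to the library total with a TMM factor, which evens out differences in composition between libraries. The neuronal miR-124-3p stood at 3257 ± 143 CPM (SD, n = 4) in vehicle and 3078 ± 283 CPM (SD, n = 8) in ethanol rats. The other neuronal marker of the tissue check was listed as miR-9a-5p, at 24305 ± 1412 CPM (SD, n = 4) and 23062 ± 1646 CPM (SD, n = 8). Markers of choroid plexus were also high, with a summed level of 5 miRNAs between 16528 and 70935 CPM over all libraries.

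The mature sequences of 5 of the 6 members were matched by name in RefSeq (rat assembly GRCr8). The 3 guides are shown first because they share the seed, in capitals, that makes them 1 family.
miR-148a-3p: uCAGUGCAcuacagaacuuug
miR-148b-3p: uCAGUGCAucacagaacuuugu
miR-152-3p: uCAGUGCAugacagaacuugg
Over all 753 listed miRNAs, 688 had a RefSeq mature sequence, and 3 of these carried the bases CAGUGCA at positions 2 to 8, the guides themselves. Counted from 1 at the 5′ end, miR-148a-3p and miR-148b-3p differed by C9U and U10C, miR-148a-3p and miR-152-3p by C9U, U10G and U20G, and miR-148b-3p and miR-152-3p by C10G and U20G. The guides were thus identical over their first 8 bases, and miR-148b-3p and miR-152-3p over their first 9.

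The opposite arms of miR-148a and miR-152 do not carry this seed, and their own bases 2 to 8 (in capitals) differ from each other. The member without a matched mature sequence was miR-148b-5p, so its bases were not compared.
miR-148a-5p: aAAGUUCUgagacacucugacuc
miR-152-5p: aGGUUCUGugauacacuccgacu
In the hairpin of miR-148a, whose arms are in capitals, the 5p arm comes first and the 3p guide second. The 3p guide alone is in capitals in the hairpin of miR-148b.
miR-148a hairpin: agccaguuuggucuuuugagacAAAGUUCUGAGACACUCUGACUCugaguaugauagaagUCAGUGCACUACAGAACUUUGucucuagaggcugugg
miR-148b hairpin: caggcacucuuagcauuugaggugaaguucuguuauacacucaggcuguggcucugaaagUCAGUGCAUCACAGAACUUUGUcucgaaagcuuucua

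RefSeq places the miR-148a hairpin on GRCr8 at chr4:81664431-81664527 (minus strand), outside any annotated gene. The miR-148b hairpin is at chr7:136299870-136299966 (plus strand), within Copz1 and on its strand. The guide miR-152-3p is at chr10:82329435-82329455 (plus strand), within Copz2 and on its strand. Copz1 and Copz2 encode the zeta subunits of the COPI coat, which carries vesicles from the Golgi back to the endoplasmic reticulum. The 3 loci have neighbours of the same gene families. Nfe2l3, Hnrnpa2b1 and Cbx3 lie on one side of miR-148a, Cbx5, Hnrnpa1 and Nfe2 on one side of miR-148b, and Cbx1 and Nfe2l1 on one side of miR-152. The Cbx genes encode heterochromatin proteins of the HP1 type, and the Nfe2 genes encode transcription factors. The submitters' notes name build rn5 for the counting, so these GRCr8 positions describe the sequences and not the alignment. Whether the hairpins are intronic was not examined.

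Together the 6 members held 0.700% to 0.952% of the counts of a library. By mean CPM over the 12 libraries, miR-148a-3p ranked 31, miR-148a-5p 84, miR-152-3p 87, miR-148b-3p 97, miR-148b-5p 200 and miR-152-5p 342 of the 753 listed miRNAs. The 5 mature sequences are 21 to 23 bases long and each read covers a whole miRNA, so levels were compared without a length scale, although preferences of the adapter ligation for some sequences also enter such a comparison.

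In vehicle rats 9, 10, 19 and 20 the level of miR-148a-3p was 5320, 5441, 6102 and 6194 CPM. In ethanol rats it ranged from 4587 CPM in rat 15 to 7031 CPM in rat 8, with a median of 5795 CPM. The ethanol values spread on both sides of the vehicle values, with 3 rats below every vehicle rat, 3 above and 2 between. This guide was the dominant member in every library, and it made up between 75.4% and 84.9% of the counts of the 3 guides.

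The level of miR-152-3p was 843, 827, 963 and 941 CPM in vehicle rats 9, 10, 19 and 20. In ethanol rats it ranged from 591 CPM in rat 3 to 1055 CPM in rat 16, with a median of 826 CPM. The groups overlapped: 3 ethanol rats had values inside the vehicle range, 4 had lower values and 1 a higher value. Rat 3 held the lowest level of miR-152-3p and the second-highest level of miR-148a-3p, and there miR-152-3p made up 7.35% of the guide counts, against a mean of 12.2% ± 0.263 (SD, n = 4) in vehicle rats.

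The level of miR-148b-3p was 679, 646, 634 and 708 CPM in vehicle rats 9, 10, 19 and 20. In ethanol rats it ranged from 538 CPM in rat 4 to 743 CPM in rat 23, with a median of 630 CPM. Again the groups overlapped, with 4 ethanol rats below every vehicle rat, 2 within the range and 2 above. In the order of levels, miR-148a-5p and miR-152-3p did not separate, since miR-148a-5p was the higher in 6 of 12 libraries. In 11 of 12 libraries miR-152-3p was above miR-148b-3p, by a geometric mean of 1.29 times, and ethanol rat 3 was the exception. All other neighbours in the order were separated in all 12 libraries.

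Of the opposite arms, miR-148a-5p was the most abundant, at 821, 913, 933 and 892 CPM in vehicle rats 9, 10, 19 and 20 and between 768 CPM (rat 15) and 1041 CPM (rat 8) in ethanol rats, median 908 CPM. For miR-148b-5p the vehicle values were 75.9, 81.7, 75.3 and 77.7 CPM, and the ethanol values ranged from 56.5 CPM (rat 3) to 85.0 CPM (rat 23), with a median of 75.6 CPM. For miR-152-5p they were 8.59, 5.11, 8.83 and 14.3 CPM, and the ethanol values ranged from 4.94 CPM (rat 15) to 15.4 CPM (rat 8), with a median of 10.9 CPM. In all 3 cases the groups overlapped. The counts behind miR-152-5p were few, between 12 and 67 per library, and in vehicle rat 10 the exact 95% Poisson interval of its level ran from 2.64 to 8.92 CPM. Such intervals cover counting error only.

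**Figure D1:**
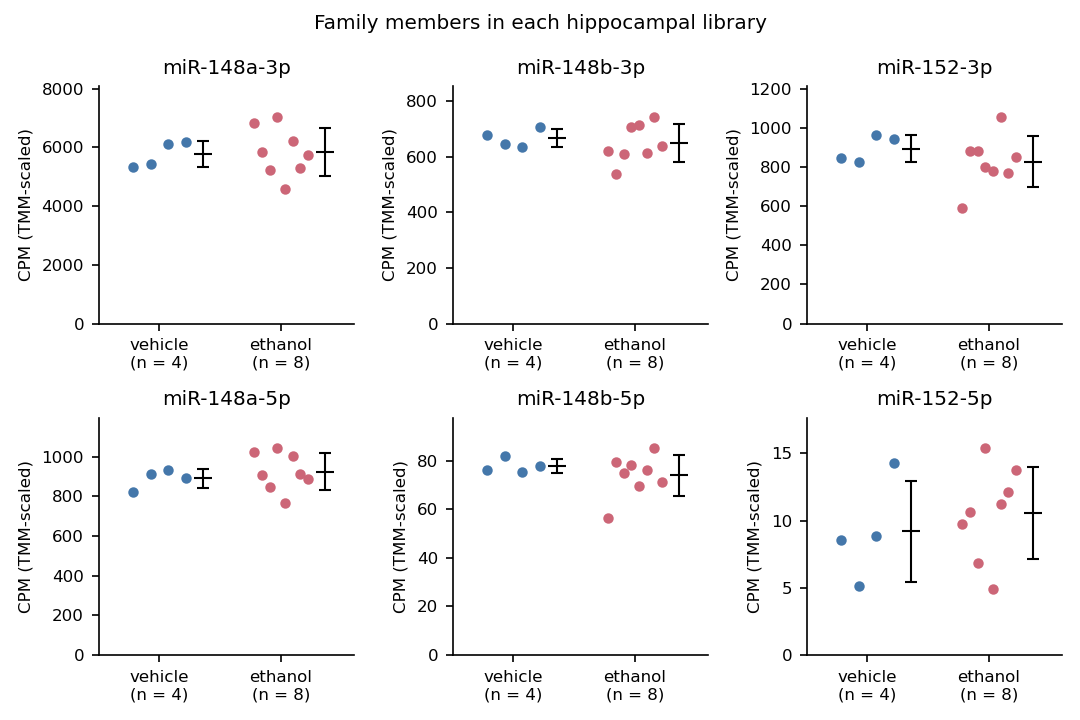
Level of each family member in CPM (linear axes from 0) in vehicle rats (blue, n = 4) and ethanol rats (red, n = 8), 1 point per rat, with the group mean and SD in black. The groups overlap in all 6 panels, and miR-148a-3p lies between 4587 and 7031 CPM in every library.

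Between rats, all members but miR-152-5p varied less than the median of the retained miRNAs. Counted from the lowest SD, miR-148a-3p ranked 145 and miR-152-3p 173 of the 420, and miRNAs of like level were not compared. The SD of log2 CPM within groups was 0.13 for miR-148a-5p and miR-148b-3p, 0.15 for miR-148b-5p, 0.18 for miR-148a-3p and 0.21 for miR-152-3p, against a median of 0.24 over the 420 retained miRNAs. The low-count miR-152-5p was the exception at 0.52. For the 5 members other than miR-152-5p the SD in CPM was larger in ethanol than in vehicle rats, a difference that was not tested and that sets 8 rats against 4.

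None of the 6 members differed between the groups at a raw or an adjusted p under 0.05 when edgeR's quasi-likelihood test was run over all 420 retained miRNAs. The background over the 420 miRNAs was 4.05% at a raw p under 0.05 (17 miRNAs, 2.38% lower and 1.67% higher after ethanol) and 0% at an adjusted p under 0.05 (0 miRNAs). In the exact permutation test the background at a raw p under 0.05 was 2.62% (11 miRNAs), and again 0 of the 6 members were among them. DESeq2's Wald test gave 16 and 1, and limma-trend 16 and 0, and with these tests too no member passed either threshold. The share of miRNAs whose groups did not overlap in CPM was 0.238%, and 0 of the 6 members were among them.

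The log2 fold change of the dominant guide miR-148a-3p was 0.02 (standard error 0.11), from 5764 ± 447 CPM (SD, n = 4) to 5844 ± 826 CPM (SD, n = 8). Its 95% interval ran from a fold of 0.865 to 1.19 (edgeR adjusted p = 0.997). The exact permutation test of log2 CPM, over every way of dividing the libraries into 4 and 8, gave p = 0.945, and the sign turned to -0.02 when counts were scaled by library totals alone. For miR-152-3p the means were 893 ± 68.4 CPM (SD, n = 4) and 826 ± 131 CPM (SD, n = 8), which edgeR fitted as a log2 fold change of -0.11 (standard error 0.12). Its interval ran from a fold of 0.774 to 1.10 (exact permutation p = 0.364). Leaving out ethanol rat 3 brought this value to -0.02.

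For miR-148b-3p the means were 667 ± 33.5 CPM (SD, n = 4) and 648 ± 67.9 CPM (SD, n = 8), and the fitted log2 fold change was -0.04 (standard error 0.09). Its interval ran from a fold of 0.855 to 1.11 (exact permutation p = 0.592), and the sign turned to 0.01 with the library total as covariate. The interval of miR-148a-5p ran from a fold of 0.914 to 1.18 (exact permutation p = 0.56) and that of miR-148b-5p from 0.819 to 1.11 (exact permutation p = 0.457). Among the members the interval was widest for miR-152-5p, from 0.719 to 1.74 (log2 fold change 0.16, exact permutation p = 0.545). An adjusted p of 0.971 was given by edgeR's quasi-likelihood test to each member other than miR-148a-3p.

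By direction, 3 of the 6 members had a fitted fold below 1 after ethanol, against 54% of the retained miRNAs, and their median log2 fold change was -0.01, against -0.02 over all retained miRNAs. The summed level of the 3 guides, which share their seed, was 7325 ± 520 CPM (SD, n = 4) in vehicle and 7318 ± 800 CPM (SD, n = 8) in ethanol rats.

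**Figure D2:**
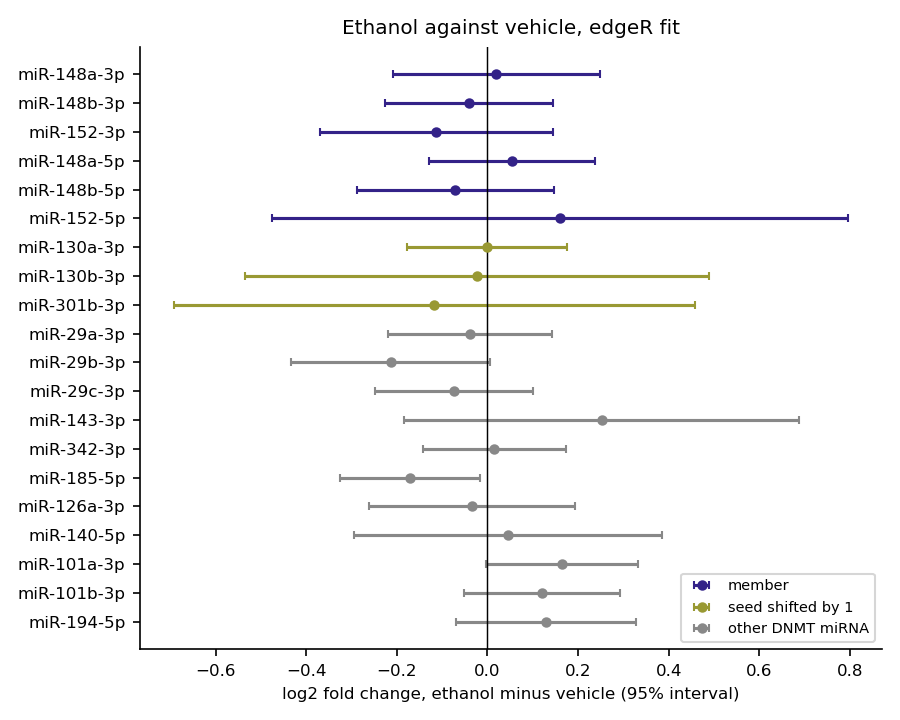
Fitted log2 fold change, ethanol minus vehicle, with its 95% interval, for the 6 family members, 3 miRNAs with the shared seed shifted by 1 base and 11 other miRNAs described as acting on DNA methyltransferases. The vertical line marks no change, and the interval of every family member spans it.

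The balance of the 2 arms was examined as a ratio within each library, which needs no scaling. The 5p arm made up 13.6% ± 0.648 (SD, n = 12) of the counts of miR-148a, 10.3% ± 1.16 (SD, n = 12) of those of miR-148b and 1.19% ± 0.427 (SD, n = 12) of those of miR-152. The ranges of miR-148a (12.6% to 14.7%) and miR-148b (8.35% to 12.9%) overlapped slightly, and the highest value of miR-152 (1.88%) was below both. At the lowest value of miR-152, in vehicle rat 10, the 95% Wilson interval of 12 counts in 1955 ran from 0.351% to 1.07%.

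The 3p to 5p ratio of miR-148a was 6.48 ± 0.404 (SD, n = 4) in the vehicle group and 6.31 ± 0.332 (SD, n = 8) in the ethanol group (exact permutation p = 0.442). For miR-148b it was 8.58 ± 0.551 (SD, n = 4) and 8.85 ± 1.31 (SD, n = 8) (exact permutation p = 0.788). For miR-152 it was 106 ± 37.3 (SD, n = 4) and 85.8 ± 36.3 (SD, n = 8) (exact permutation p = 0.323), and the difference in its mean log2 ratio moved from -0.34 to -0.14 without vehicle rat 10 and to -0.55 without vehicle rat 20. The balance of the guides was tested in the same way. The ratio of miR-148a-3p to miR-148b-3p was 8.66 ± 0.742 (SD, n = 4) and 9.12 ± 1.68 (SD, n = 8) (exact permutation p = 0.715). That of miR-148a-3p to miR-152-3p was 6.45 ± 0.149 (SD, n = 4) and 7.28 ± 1.97 (SD, n = 8) (exact permutation p = 0.552), and the ethanol values reached 11.5 in rat 3. That of miR-148b-3p to miR-152-3p was 0.749 ± 0.0639 (SD, n = 4) and 0.806 ± 0.172 (SD, n = 8) (exact permutation p = 0.642). Adjusted over the 6 ratios, the permutation p was 0.788 for each.

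**Figure D3:**
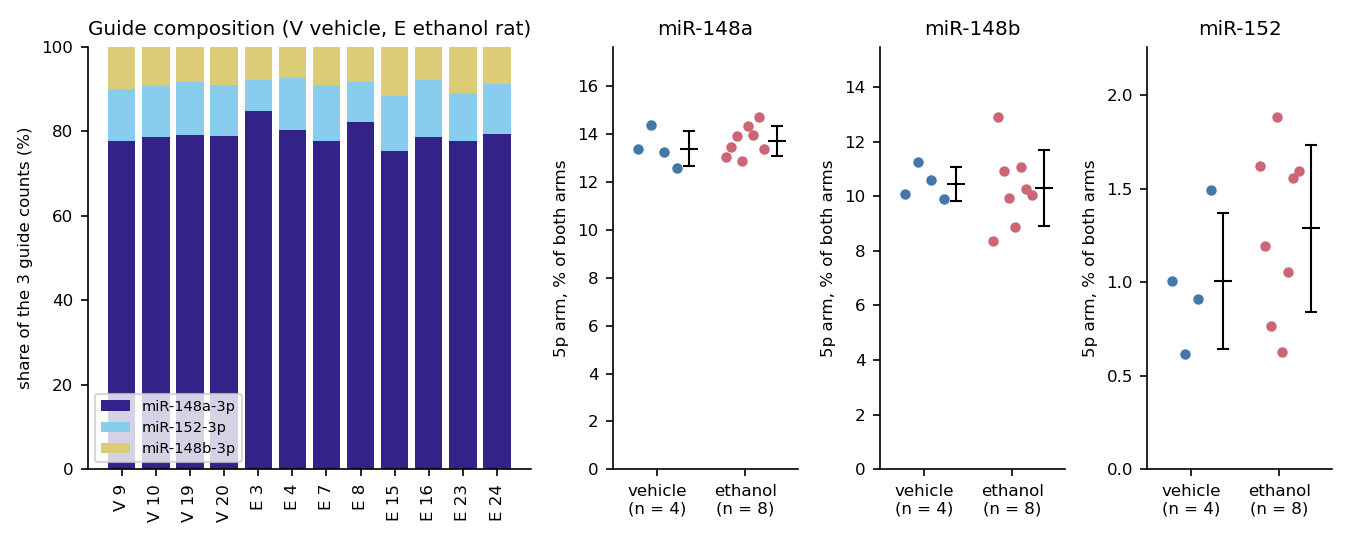
Left, share of each guide in the counts of the 3 guides, in percent, 1 bar per library (V vehicle, E ethanol, with the animal number). Right, the 5p arm as a percent of both arms of each hairpin, 1 point per rat with the group mean and SD, on axes from 0 that differ between panels. In ethanol rat 3 miR-148a-3p takes 84.9% of the guide counts, the highest share.

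The counts of the 3 guides were not independent, since the deposited counts are estimates that divide some reads between similar miRNAs. Summed over the 3 guides they were within 0.01 of a whole number in 7 of 12 libraries, whereas miR-148a-3p, miR-148b-3p and miR-152-3p alone were so in 0, 0 and 1 of 12. Of the 5p arms, miR-148a-5p was whole in 12 of 12 libraries, and miR-148b-5p and miR-152-5p in 11 of 12. In the remaining library, vehicle rat 19, the 5p counts were fractional but their sum was whole. In the other 5 libraries the sum of the guides was up to 0.203 from a whole number. How many reads were divided is not given in the files, and the error this adds to the levels of the guides is unknown.

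Across the 12 rats the arms of miR-148a moved together. The log2 CPM of miR-148a-3p and miR-148a-5p correlated with Pearson r = 0.905 (permutation p = 1e-04) and Spearman rho = 0.818 (permutation p = 0.00192), and the p of r adjusted over 7 pairs was 0.0007. Without ethanol rats 8 and 15, the 2 libraries farthest from the median of miR-148a-3p, r was 0.792 (permutation p = 0.00596). Within the 8 ethanol libraries r was 0.956 (exact permutation p = 0.000347). The 4 vehicle libraries are too few for a value of their own.

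Such a relation was not seen in the other hairpins, although the difference between hairpins was not tested. For miR-148b-3p and miR-148b-5p r was 0.173 and rho was 0.217 (permutation p = 0.581 and 0.499), and r was 0.248 without ethanol rats 4 and 23. For miR-152-3p and miR-152-5p r was 0.12 and rho was 0.112 (permutation p = 0.718 and 0.734), and r was 0.155 without ethanol rats 3 and 16. Between guides, r was -0.188 for miR-148a-3p with miR-148b-3p, -0.0795 for miR-148a-3p with miR-152-3p and -0.183 for miR-148b-3p with miR-152-3p (permutation p = 0.557, 0.807 and 0.565, with rho = -0.238, 0.168 and -0.476, permutation p = 0.457, 0.603 and 0.12). Without the 2 farthest libraries these r were -0.249, -0.192 and -0.06. For miR-148b-5p with miR-152-3p r was 0.613 and rho 0.049 (permutation p = 0.0649 and 0.887), and without ethanol rats 3 and 23 r was 0.176. That value rested on rat 3, since r was -0.129 without rat 3 alone and 0.767 without rat 23 alone. Apart from the arms of miR-148a, the lowest p of r adjusted over the 7 pairs was 0.227.

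The miRNAs whose log2 CPM was most like each member over the 12 libraries differed between the 3 hairpins. These likenesses are a description, and all points share the scaling of their library. They are the 3 highest r of each member with all other retained miRNAs, so the selection alone makes them high. After its own 5p arm, miR-148a-3p was most like miR-199a-3p (r = 0.878) and miR-142-5p (r = 0.848), the latter a marker of microglia and immune cells. For miR-148a-5p they were miR-148a-3p, miR-199a-3p (r = 0.771) and miR-223-3p (r = 0.768), a myeloid miRNA. For miR-148b-3p they were miR-128-1-5p (r = 0.824), miR-674-5p (r = 0.747) and miR-361-3p (r = 0.664), and for miR-148b-5p they were miR-22-5p (r = 0.775), miR-872-5p (r = 0.753) and miR-449a-5p (r = 0.728), which is found in ciliated cells. For miR-152-3p they were the neuronal miR-137-3p (r = 0.819), the neuroendocrine miR-375-3p (r = 0.798) and miR-34b-3p (r = 0.787), another miRNA of ciliated cells. The summed level of the neuronal markers miR-124-3p and miR-128-3p, without miR-9a-5p, gave r = -0.0808 and rho = -0.238 with miR-152-3p (permutation p = 0.795 and 0.458). This r was -0.103 without ethanol rats 8 and 23. For miR-152-5p they were miR-24-2-5p (r = 0.894), miR-155-5p (r = 0.788) and miR-204-3p (r = 0.75). No guide was among the 3 most like another guide.

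Summed levels of 7 marker lists were then related to the members, which gave 42 relations. Each list was summed in CPM, so its most abundant miRNAs weigh most and a relation can rest on 1 of them. In the vessel list miR-143-3p stood at 30260.5 to 64698.1 CPM, against 1791 to 2386 CPM for miR-126a-5p. In the list of microglia and immune cells miR-150-5p stood at 475 to 663 CPM, against 2.64 to 13.3 CPM for miR-223-3p. The list of red blood cell miRNAs (miR-451-5p, miR-144-3p and miR-144-5p were listed, 3 of 4) correlated with miR-148a-3p with r = 0.85 (permutation p = 0.00025, adjusted over the 42 relations p = 0.0105) and rho = 0.895 (permutation p = 0.00019). Without ethanol rats 7 and 15 r was 0.73 (permutation p = 0.0142), and within the 8 ethanol libraries r was 0.872 (exact permutation p = 0.00479). Omitting any single rat kept r between 0.77 and 0.915, and the adjusted p was under 0.05 in 11 of 12 cases and 0.104 without ethanol rat 15, the rat with the lowest miR-148a-3p. The summed level of the list was 133 to 229 CPM in vehicle and 61.2 to 309 CPM in ethanol rats, far below that of miR-148a-3p itself. With all 12 libraries no other relation passed at an adjusted p under 0.05, but 4 others passed when 1 rat was left out. Among them was that of miR-148a-3p with the choroid plexus list, for which r was 0.436 and rho 0.517 (permutation p = 0.156 and 0.0874) over all libraries, 0.929 without ethanol rat 3 (adjusted p = 0.00504) and 0.173 without ethanol rat 15. Without both rats r was 0.881 (permutation p = 0.00076). For miR-148a-3p with the list of vessels r was 0.704 and rho 0.538 (permutation p = 0.0104 and 0.0735, adjusted p of r 0.0924), and r was 0.712 without ethanol rats 3 and 4. Differences between these relations were not tested.

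The next relation was that of miR-152-3p with the choroid plexus list (5 of 5 listed, among them miR-204-5p and miR-211-5p), with r = 0.748 and rho = 0.713 (permutation p = 0.00442 and 0.012, adjusted p of r over the 42 relations 0.0664). Without ethanol rats 3 and 15, the 2 libraries with the least choroid plexus signal, r was 0.495 (permutation p = 0.144), so the relation rested in part on those libraries. Leaving out ethanol rat 3 alone gave 0.585, and leaving out ethanol rat 8, which had the most choroid plexus signal, gave 0.894 (adjusted p = 0.00042). Within the 8 ethanol libraries r was 0.727 (exact permutation p = 0.0345). The list spanned 29003 to 50301 CPM in vehicle and 16528 to 70935 CPM in ethanol rats. Ethanol rat 3, with the lowest miR-152-3p, also had the lowest level of this list, and the part of these marker levels in the members' values was not tested.

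**Figure D4:**
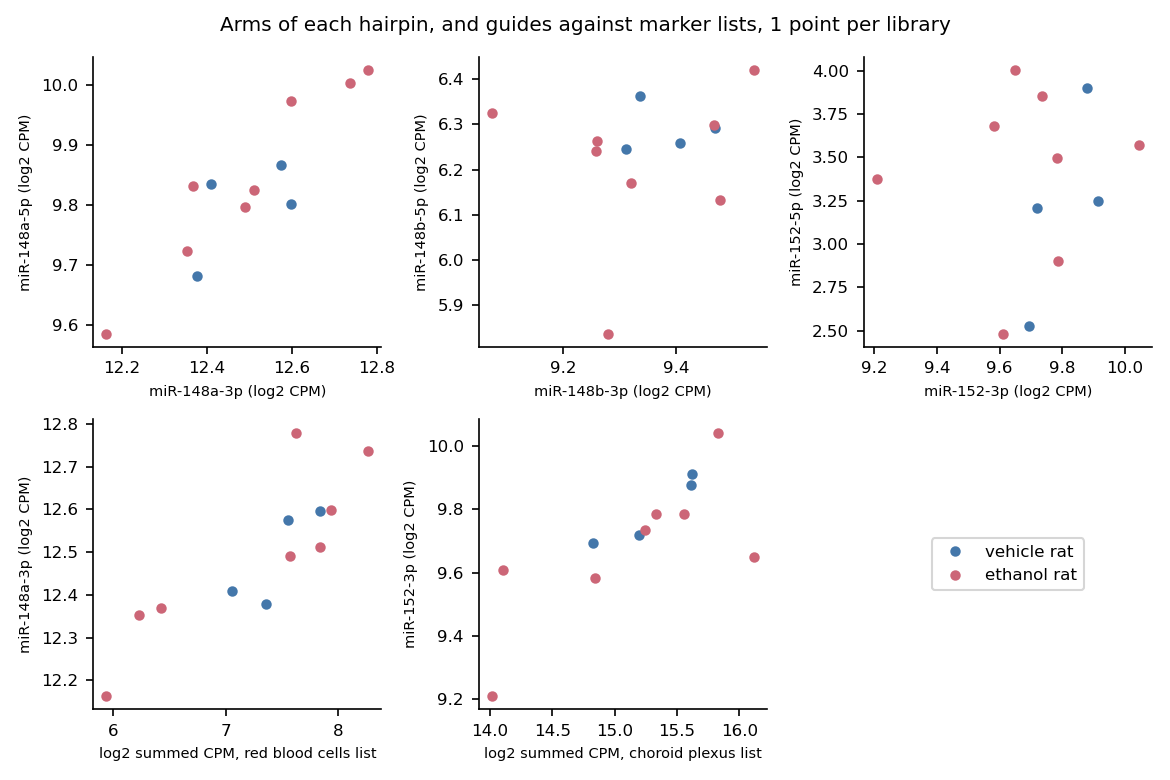
Each point is 1 library (blue vehicle, red ethanol). The upper row plots the 5p against the 3p arm of each hairpin in log2 CPM, and the lower row plots miR-148a-3p against the summed red blood cell list and miR-152-3p against the summed choroid plexus list. The arms of miR-148a rise together (r = 0.905), and those of miR-148b and miR-152 do not line up (r = 0.173 and 0.12).

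Of the other marker lists, neurons (2 of 3 summed) spanned 8467 to 12211 CPM over all libraries, oligodendrocytes (2 of 2) 9193 to 18748 CPM and microglia and immune cells (4 of 4) 744 to 1095 CPM. Vessels (4 of 4) spanned 32603 to 67951 CPM and muscle (5 of 5) 112 to 1765 CPM. The neuron sum left out miR-9a-5p, because the list held it under the name miR-9-5p, which was not matched. For all 7 lists the ranges of vehicle and ethanol rats overlapped. The muscle list nevertheless stood apart, at 1685, 128, 1626 and 1765 CPM in vehicle rats 9, 10, 19 and 20 and at 112 to 290 CPM in ethanol rats other than rat 16, which had 1712 CPM. The mean log2 level, ethanol minus vehicle, differed by -1.89 (exact permutation p = 0.0848), and 1 of its 3 retained miRNAs, miR-133a-3p, had a raw p under 0.05. With the family its highest r was 0.534, for miR-152-3p (rho = 0.594, permutation p = 0.0663 and 0.0447, adjusted p of r over the 42 relations 0.199), and r was 0.302 without vehicle rat 20 and ethanol rat 16. Its part in the members' values was not tested. No listed marker was at 0 in all libraries.

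A wider group of 12 miRNAs described as acting on Dnmt1, Dnmt3a or Dnmt3b was examined beside the family, and 11 were retained. The exception, miR-200b-3p, an epithelial miRNA, had at most 15.6 counts in a library. Of the 11, 5 had a fitted fold below 1 and 6 above, 1 had a raw p under 0.05 and 0 passed after adjustment (edgeR), against 4.05% and 0% of all retained miRNAs. That count ranged from 0 to 3 under the other settings tried. The group was chosen with earlier results of these data known, so the count is a description only.

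The miRNA with an edgeR raw p under 0.05 was miR-185-5p, a repressor of Dnmt1, at a log2 fold change of -0.17 (standard error 0.07, edgeR adjusted p = 0.971). Its ethanol values all lay below its vehicle values, and it was the 1 miRNA of the 420 (0.238%) whose groups did not overlap in CPM. The study already names miR-185-5p among the miRNAs lowered by ethanol, so this is not a separate finding. In the exact permutation test miR-185-5p (p = 0.00202) and miR-29b-3p (p = 0.0404) had a raw p under 0.05. No other miRNA of the group did, and the background of that test was 2.62% of all retained miRNAs. For this chosen group these p are a description too. The miR-29 guides, which target Dnmt3a and Dnmt3b, gave log2 fold changes of -0.04 for miR-29a-3p, -0.21 for miR-29b-3p and -0.07 for miR-29c-3p. The values were 0.17 for miR-101a-3p and 0.12 for miR-101b-3p, and 0.25 for miR-143-3p, which had the largest standard error of the group (0.20). For miR-342-3p, miR-126a-3p, miR-140-5p and miR-194-5p they were 0.02, -0.03, 0.05 and 0.13. In level, miR-148a-3p exceeded each of these apart from miR-143-3p, which stood at 41141 ± 3805 CPM (SD, n = 4) in vehicle rats.

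A last set holds the bases CAGUGCA 1 position earlier, at positions 1 to 7, and is shown because its seed overlaps that of the family by 6 bases.
miR-130a-3p: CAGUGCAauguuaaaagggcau
miR-130b-3p: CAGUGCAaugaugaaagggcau
miR-301b-3p: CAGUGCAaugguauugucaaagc
The level of miR-130a-3p, 656 ± 37.2 CPM (SD, n = 4) in vehicle and 656 ± 61.8 CPM (SD, n = 8) in ethanol rats, stood next to that of miR-148b-3p. Those of miR-301b-3p (53.9 ± 14.3 CPM, SD, n = 4, and 49.5 ± 19.6 CPM, SD, n = 8) and miR-130b-3p (3.99 ± 0.685 CPM, SD, n = 4, and 3.98 ± 1.17 CPM, SD, n = 8) were lower. None of the 3 passed a raw p under 0.05 (log2 fold changes 0, -0.12 and -0.02).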

How the data were processed

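Small RNA of the right hippocampus (dorsal, by the study's account) was sequenced from 4 vehicle and 8 ethanol rats. The authors deposited, per rat, expected counts (estimated counts, some fractional) of 753 mature miRNAs, not scaled to library size. The submitters' processing notes name cutadapt, Partek and build rn5, without roles or versions. Counts were rounded, and 420 miRNAs were kept after the study's filter, read as dropping those under 10 reads in at least 10 libraries. The study's design had more rats than are analysed here, so the same numbers can be a looser filter here. Groups were compared with edgeR 4.0.16 (R 4.3.3), TMM scaling, the quasi-likelihood test and Benjamini-Hochberg adjustment over the 420. The log2 CPM used a prior count of 2. Exact permutation tests were two-sided and enumerated all 495 divisions into 4 and 8, so 0.00202 was the smallest p possible. Ratios used unrounded counts and a pseudocount of 0.5. Correlations used 100000 permutations, or all 40320 for 8 libraries. A count of 3 corresponds to 0.631 to 1.57 CPM, depending on the library. The scripts were tested on simulated data.

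The members and lists were chosen with earlier results of these data known. The rows of miR-148a and miR-152-5p, which the rule also selects, and their 4 ratios and 4 pairs, were added once the tables were read. The marker relations were added too. Named miRNAs were all rows of the family, those with its seed or that seed shifted by 1, the 3 most alike by Pearson r and the nearest in level to each member, the other DNA methyltransferase miRNAs, markers and a tissue check. Alternatives were DESeq2 1.42.0, limma-trend (limma 3.58.1), robust empirical Bayes, RLE, upper quartile, total and library-median scaling, other filters, unrounded and down-sampled counts, the library total as covariate and each rat left out. Libraries were multiplexed in sets, but the labels do not tie a rat to its set, and sets were not compared. A single-library interval is exact Poisson for a count and Wilson for a share.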

Additional observations from a re-analysis of the deposited data

How the results depend on the processing

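Across all alternatives the 6 members stayed above an adjusted p of 0.05, but signs of values near 0 turned. The log2 fold change of miR-148a-3p was -0.0169 with library totals alone, and that of miR-148b-3p was 0.00849 with the library total as covariate. The log2 change of the miR-148b arm ratio was -0.0137 with down-sampled counts. With each rat left out in turn, log2 fold changes ranged from -0.0228 to 0.0933 for miR-148a-3p (negative without vehicle rat 9 or 10 or ethanol rat 8), from -0.0713 to 0.0255 for miR-148b-3p (positive without vehicle rat 20 or ethanol rat 3), from -0.10 to 0.0119 for miR-148b-5p (positive without ethanol rat 3) and from -0.0062 to 0.50 for miR-152-5p (negative without vehicle rat 10). The log2 change of the miR-148b arm ratio ranged from -0.0132 to 0.0865 (negative without vehicle rat 10 or ethanol rat 3). The correlation of miR-148a-3p with miR-152-3p ranged from -0.226 to 0.446 and that of miR-148b-5p with miR-152-3p from -0.129 to 0.767, both turning without ethanol rat 3, and that of miR-148b-3p with miR-148b-5p from -0.00567 to 0.414, turning without ethanol rat 23. The cause was not tested. Signs of miR-148a-5p, miR-152-3p, the other 5 ratios and the other 4 correlations were kept under every alternative.

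Over all retained miRNAs, 11 had a raw p under 0.05 with the library total as covariate and between 5 (without vehicle rat 20) and 24 (without vehicle rat 19) with 1 rat left out, with 9 without vehicle rat 9, 10 without ethanol rat 4 and 11 without ethanol rat 8. An adjusted p under 0.05 was given to 1 miRNA by DESeq2 and to 0 to 3 with 1 rat left out (3 without ethanol rat 16). Of the other DNA methyltransferase miRNAs, 2 had a raw p under 0.05 with library totals alone, RLE scaling, DESeq2, limma-trend or the library total as covariate, 3 with no filter or down-sampled counts, and 0 to 2 with 1 rat left out. Depth limits miR-152-5p most, with 12 to 67 counts a library. No paired analysis was made, because the groups share no animal numbers and the labels name no cage or litter. The study pair-housed its rats and limited the pups of a litter in each condition. The tests here treat the rats as independent.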

Other observations

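Of the remaining relations with marker lists, 2 more had a raw permutation p under 0.05 with Pearson's r and with Spearman's rho for a guide. The level of miR-148a-3p correlated with the list of microglia and immune cells (r = 0.758, rho = 0.741, permutation p = 0.00474 and 0.00815, adjusted p of r over 42 relations 0.0664), and r was 0.53 without ethanol rats 3 and 15. Without ethanol rat 8 its r was 0.799 and the adjusted p 0.0467. The level of miR-148b-3p correlated negatively with the list of vessels (r = -0.67, rho = -0.706, permutation p = 0.0176 and 0.0134, adjusted p of r 0.123), and r was -0.484 without ethanol rats 3 and 4. Without ethanol rat 8 its r was -0.845 and the adjusted p 0.0132. None of the library totals, member levels, ratios or summed guide levels (28 groups of rats) held a rat far from the rest of its group by Dixon's criterion, against 1.4 such groups by chance.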
